A study of Mus musculus with 12 samples.

Results

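RNA from mouse embryonic stem (ES) cells that were given back wild-type copies of their knocked-out Dppa2 and Dppa4 genes was compared with RNA from the parental cells, so as to read which genes returned to the parental level, which overshot it and which stayed away from it. The samples were chosen by their titles: 3 arrays of the wild-type add-back against 3 arrays of the parental line, 6 of the 12 arrays in the series. Each gene was read from 1 probe set, the brightest over all arrays of those with a single gene symbol, which gave 22180 genes. Parental cells were ES cells with a MERVL::tdTomato reporter, a red fluorescent gene driven by an endogenous retrovirus. All groups carry this reporter. The knockout (KO) is Dppa2/4 KO in the same reporter cells, and the add-back, KO+WT, is that knockout given Dppa2 and Dppa4 WT-GFP plasmids. The remaining group, a SUMO-deficient add-back, entered only the estimate of spread and, as part of the mean over all arrays, the choice of each gene's probe set.

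All cells were grown on gelatin with serum replacement and LIF. The plasmids were delivered by lipofection and GFP-positive cells were sorted before RNA extraction. The sources state neither step for the parental or KO cells, so the proteins, the plasmid level, transfection and sorting cannot be told apart as sources of a difference between KO+WT and parental cells. Not given in the sources used here are the time after transfection, the promoter of the plasmids and the number of knockout clones. Beyond the term biological replicate, nothing says how the samples of a group were obtained, and p-values then measure only the spread between these samples. In bulk RNA, fewer cells expressing a gene and less RNA per cell cannot be told apart.

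Dppa2 and Dppa4 are small DNA-binding proteins of the early embryo and of pluripotent cells, where they work as a pair. They are known to keep certain germline and developmental promoters open to activation, and to lie upstream of Dux, the transcription factor that switches on the 2-cell-like (2C-like) program. This program is a set of genes of the newly activated embryonic genome, with the Pramel, Tcstv, Tdpoz, Usp17l and Zscan4 families among them, and a small minority of ES cells enters it at any time.

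KO+WT cells did not return to the parental profile at every gene. With limma, 71 of 22180 genes were higher in KO+WT than in parental cells (0.320%) and 51 were lower (0.230%) at an adjusted p under 0.05. Of the genes above parental level, 24 belong to a list of the 2C-like program, with rises of up to 4.49 on the log2 scale, and 47 do not. The list is not complete: Pramel31, of a listed family, and Gm1995, Gm2035 and Gm2046, in a run with listed genes, count among the 47. Being outside the list thus does not mean being outside the program. The genes below parental level held Prpf39, Atxn1l, Sohlh2 and other genes that were also low in KO cells. At least a 2-fold difference was seen for 53 of the higher and 24 of the lower genes. The titles number the replicates, and arrays with the same number deviated together. With that number as a block, 237 genes were higher (1.07%) and 221 lower (0.996%), and all 122 calls were kept. The 6 arrays compared were also left out singly, here and wherever a value without a replicate is given. Leaving out parental replicate 1 gave 35 higher and 31 lower genes, replicate 2 gave 34 and 17, and replicate 3 gave 37 and 16. Of the KO+WT arrays, leaving out replicate 1 gave 102 higher and 29 lower genes, replicate 2 gave 36 and 26, and replicate 3 gave 40 and 26. A fit of the 6 arrays alone gave 32 higher and 20 lower. Most genes lay near the parental level: for 21223 genes (95.7%) the 95% interval of the difference stayed within 2-fold in either direction. KO cells, without add-back, had 21492 such genes against parental cells, so this count does not measure return. The median difference of KO+WT from parental cells over all genes was 0.0036 (log2), and it was -0.0545 after each array was centred on its own median. At the other end, the interval lay wholly beyond 2-fold for 47 genes above parental level, 25 of them in the 2C-like list, and for 9 genes below it.

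**Figure D1:**
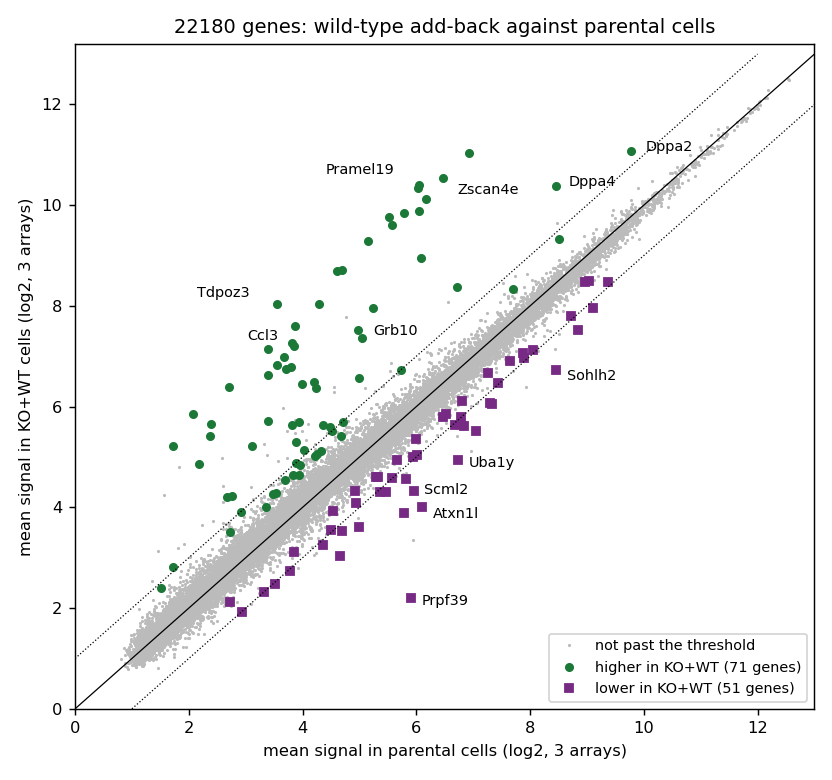
Mean signal (log2, 3 arrays per group) of 22180 genes in parental cells, on the x axis, and in KO+WT cells, on the y axis. The 71 genes higher in KO+WT (green circles) and 51 lower (purple squares) past an adjusted p of 0.05 are marked, the solid line is equality and the dotted lines are 2-fold; Tdpoz3 lies farthest above and Prpf39 farthest below.

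Depth in array data is limited by the number of arrays and by background. Array medians ran from 3.73 to 3.88 (log2), pairs of the 12 arrays correlated with r from 0.976 to 0.994 across genes, and the median 95% half-width of a difference was 0.345. The median array of KO+WT lay 0.0581 above that of parental cells. None of the 8 ES cell defining markers, which include Pou5f1, Nanog and Sox2, passed the test. Their mean was 9.03, 9.04 and 9.05 on the parental arrays and 8.99, 9.02 and 9.10 on the KO+WT arrays. In such a mean opposite shifts can cancel: 4 differences were positive and 4 negative. All KO+WT arrays lay above the parental arrays for 1 marker and below for 1 (8.05% and 7.80% of all genes). Missing the threshold does not show an equal level. The marker Dppa5a was low in every group, between 3.82 and 4.39. Of the 21 gene lists, with 511 of 579 genes measured, only the 2C-like and Dppa lists had more than 1 member higher in KO+WT in the fit without the block.

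The returned genes came first. Dppa2 signal (log2) was 9.35, 9.81 and 10.17 on the parental arrays, 8.13, 8.69 and 8.63 on the KO arrays and 10.79, 11.34 and 11.11 on the KO+WT arrays. Every KO+WT array lay above every parental array. The difference from parental cells was 1.31 (SE 0.21, n = 3 per group, limma adjusted p = 0.0154), or 2.47-fold. Over all genes, the KO+WT arrays lay wholly above the parental arrays for 8.05% and wholly below for 7.80%. The Dppa2 call was lost without parental replicates 1 and 2 (adjusted p = 0.0568 and 0.0612), KO+WT replicates 2 and 3 (0.0772 and 0.0564), and in a fit of the 6 arrays alone (0.0839). Dppa4 was 8.24, 8.58 and 8.55 on the parental arrays, 7.92, 7.63 and 7.31 on the KO arrays and 10.09, 10.58 and 10.49 on the KO+WT arrays. Here too the groups did not overlap, and the difference of 1.93 (SE 0.18, adjusted p = 0.000253), or 3.80-fold, was kept whichever of the 6 arrays was left out. Whether the probes lie inside the deleted sequence, or read the plasmids as well as the genes, was not checked. The 3 other measured members of the Dppa list did not pass, among them Dppa3, an oocyte and primordial germ cell protein, at -0.94 (SE 0.23, adjusted p = 0.112).

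The 2C-like program stood well above the parental level. Of its 42 measured genes, 24 were higher in KO+WT (0.320% of all genes), 0 were lower and 18 did not pass, and with the replicate block 26 were higher (1.07% of all genes) and 0 lower. The median difference of the 42 genes was 2.92 (log2), against 0.0036 over all genes. The list's mean signal was 3.66, 4.03 and 4.01 on the parental arrays, 2.98, 3.11 and 2.97 on the KO arrays and 5.28, 6.27 and 6.73 on the KO+WT arrays. The KO+WT arrays thus lay above the parental arrays by more than the KO arrays lay below them. Signals under 2.47, the highest lower quartile of the arrays, cannot be separated from background. This limits how large a KO loss can be read, so the sizes of loss and rise cannot be compared. KO+WT replicate 1 was the lowest of its group for 24 of the 24 called genes, and replicate 3 the highest for 21. When 1 of the 6 arrays was left out, 18 of the 24 calls were kept every time. The list also held genes outside the named families, among them Zfp809, a zinc finger protein that silences retroviruses. The Zfp809 difference of 0.63 was the smallest of the 24.

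Sequence from RefSeq (GRCm38.p6) shows what the promoters of these genes look like. The 250 bases before the first annotated start are printed 5′ to 3′ on the gene's strand, with CG dinucleotides, the sites of DNA methylation, in capitals. The first pair are members of the Zscan4 cluster and the other 2 represent the Usp17l and Pramel families; all 4 genes were far above the parental level.
Zscan4c (chr7:11005495-11005744, plus strand): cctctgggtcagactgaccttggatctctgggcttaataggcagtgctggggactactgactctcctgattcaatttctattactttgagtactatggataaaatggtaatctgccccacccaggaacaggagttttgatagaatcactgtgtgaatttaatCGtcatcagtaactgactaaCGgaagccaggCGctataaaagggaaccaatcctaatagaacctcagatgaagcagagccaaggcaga
Zscan4d (chr7:11166149-11166398, minus strand): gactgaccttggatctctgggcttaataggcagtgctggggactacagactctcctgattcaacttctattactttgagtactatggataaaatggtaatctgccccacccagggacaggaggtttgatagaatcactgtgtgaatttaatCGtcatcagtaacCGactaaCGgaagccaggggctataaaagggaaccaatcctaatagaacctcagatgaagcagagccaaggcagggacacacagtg
Usp17ld (chr7:103252506-103252755, minus strand): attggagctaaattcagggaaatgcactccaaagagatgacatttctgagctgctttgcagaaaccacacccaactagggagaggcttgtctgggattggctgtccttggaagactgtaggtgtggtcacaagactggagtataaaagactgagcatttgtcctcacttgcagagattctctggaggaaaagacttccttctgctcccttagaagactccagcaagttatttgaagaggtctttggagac
Pramel19 (chr4:101940157-101940406, plus strand): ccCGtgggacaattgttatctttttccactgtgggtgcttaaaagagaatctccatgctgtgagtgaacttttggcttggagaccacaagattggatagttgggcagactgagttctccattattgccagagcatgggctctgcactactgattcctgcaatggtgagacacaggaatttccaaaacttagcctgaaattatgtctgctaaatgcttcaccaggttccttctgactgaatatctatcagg
These 4 stretches hold 3, 3, 0 and 1 CG. The windows of Zscan4c and Zscan4d share 93.2% of their 250 bases after a global alignment with gaps allowed. A promoter sequence was found for 12 of the 24 called genes of the program, with a median of 1.5 CG per window. The median was 3 for 45 of the 71 higher genes, 9 for 40 of the 51 lower genes and 10 for the 16918 tested genes in the table. The letters GGGCGG, searched on both strands, were in 0 of the 12 windows and in 43.3% of those of tested genes. The Dux motif, the other motif planned, was in 0 of the 12 windows and in 7 of those of tested genes (0.0414%). TATAAA, added to the plan and searched in the same way, was in 5 of the 12 (41.7%) and in 11.9%. These 5 were the windows of Zscan4b, Zscan4c, Zscan4d, Usp17lb and Usp17ld. The Zscan4 windows among them share 84.0% to 93.2% of their bases, so the 12 windows are not independent and their shares count copies. Zscan4e, Usp17le, Gm5662 and Tdpoz3 are not in the sequence table.

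Zscan4 genes encode SCAN-domain zinc finger proteins linked to telomere maintenance in 2C-like cells. Zscan4c signal was 5.60, 6.48 and 6.43 on the parental arrays, 3.97, 4.53 and 4.57 on the KO arrays and 8.98, 10.31 and 11.08 on the KO+WT arrays. The lowest KO+WT array stood above the highest parental array by a wide margin. The difference was 3.95 (SE 0.47, adjusted p = 0.00143), a 15.5-fold higher signal. Zscan4e moved through a larger range, from 5.59, 7.06 and 6.74 in parental cells down to 2.40, 1.87 and 1.90 in KO cells and up to 9.53, 10.69 and 11.42 in KO+WT cells. It was 4.08 above parental (SE 0.45, adjusted p = 0.000939) while KO was 4.41 below. All 3 KO values lay under 2.47, the highest lower quartile of the arrays, where signal cannot be separated from background, so the size of the loss is limited by the background. Zscan4b rose by 4.13 (SE 0.56, adjusted p = 0.00386), or by 4.83 without KO+WT replicate 1. Zscan4d was 3.74 higher (adjusted p = 0.0264), a call lost without any 1 of parental replicates 1, 2 and 3 (0.106, 0.0612 and 0.0666), KO+WT replicates 2 and 3 (0.101 and 0.0821) and in the fit of 6 arrays (0.127). The Zscan4d difference was 4.60 without KO+WT replicate 1 and 3.08 without replicate 3. Zscan4a was 3.02 higher with adjusted p = 0.0513, and 0.0208 with the replicate block. Members of this cluster are near-identical copies, so a probe set may read more than 1 of them and the calls per member are uncertain. The same holds for the Usp17l, Tdpoz and Pramel families.

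Usp17l genes encode deubiquitinating enzymes. Usp17le was 5.0, 6.02 and 5.70 on the parental arrays, 2.04, 3.09 and 2.61 on the KO arrays and 9.0, 9.76 and 10.04 on the KO+WT arrays. The 3 groups did not overlap, and KO+WT was 4.03 above parental (SE 0.32, adjusted p = 7.32e-05). Usp17ld, by contrast, was nearly level in parental cells at 6.09, 5.96 and 6.21 and KO cells at 5.56, 6.05 and 5.65, and reached 8.39, 9.02 and 9.43 in KO+WT cells. Its difference from parental cells was 2.86 (SE 0.22, adjusted p = 7.32e-05), although the KO arrays overlapped the parental ones. Usp17la was 1.76 higher (adjusted p = 0.00165). Usp17lb was 2.68 higher (adjusted p = 0.0227), and its call was lost without parental replicates 1, 2 and 3 (0.0867, 0.097 and 0.0768), KO+WT replicates 2 and 3 (0.0976 and 0.0653) and in the fit of 6 arrays (0.141). Without KO+WT replicate 1 the Usp17lb difference was 3.44. Usp17lc, at 2.34, 4.90 and 5.47 on the KO+WT arrays and no higher than 1.80 on the parental arrays, was 2.67 higher with adjusted p = 0.0767, and 0.0339 with the block.

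Tdpoz3, which encodes a BTB-domain protein of the 2-cell embryo, had the largest rise of all named genes. Its signal was 3.07, 3.75 and 3.82 on the parental arrays, 2.17, 1.82 and 1.81 on the KO arrays and 6.89, 8.26 and 8.97 on the KO+WT arrays. The difference was 4.49 (SE 0.41, adjusted p = 0.000253), or 22.5-fold. Tdpoz1, Tdpoz2 and Tdpoz4 did not pass, with differences of -0.03, 0.70 and 0.82. Tcstv3, named for its variable expression at the 2-cell stage, was 3.75 higher (SE 0.48, adjusted p = 0.00265), whereas Tcstv1 stayed between 0.84 and 1.81 on the arrays of parental and KO+WT cells and did not pass. Pramel19, of the PRAME-like family, was 5.29, 6.85 and 6.02 on the parental arrays, 2.42, 2.92 and 2.95 on the KO arrays and 9.26, 10.84 and 11.09 on the KO+WT arrays, again with 3 separate groups. It was 4.35 above parental (SE 0.46, adjusted p = 0.00062), and Pramel31, of the same family but outside the 2C-like list, was 3.79 above (adjusted p = 0.00386). Without KO+WT replicate 1 the differences of Tcstv3 and Pramel31 were 4.41 and 4.53. Pramel5, Pramel6 and Pramel7 did not pass, with differences of -0.07, -0.60 and -0.95. Eif4a3l1, related to an RNA helicase of the exon junction complex, was 3.84 higher (SE 0.50, adjusted p = 0.00298).

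Gm2022, Gm4340, Gm8300 and Gm5662, predicted genes of the program, were 4.31, 4.11, 4.08 and 4.03 higher, with adjusted p from 0.000196 to 0.000303. Tmem92 was 3.44 higher (adjusted p = 0.0264), but lost its call without parental replicates 1, 2 and 3 (0.0993, 0.0612 and 0.111), KO+WT replicates 2 and 3 (0.102 and 0.0804) and in the fit of 6 arrays (0.114). The Tmem92 difference was 4.32 without KO+WT replicate 1 and 2.81 without replicate 3. Sp110, a nuclear body protein, was 3.30 higher by its brightest probe set (SE 0.38, adjusted p = 0.00125), but 1.77 higher by the mean of its probe sets (adjusted p = 0.00295). Among the 18 members that did not pass, 10 differences were positive, and 7 had a KO+WT mean below 2.47. Duxf3, which encodes Dux, was one of them at 2.04, 2.33 and 2.34 in KO+WT against 1.31, 1.78 and 1.78 in parental cells. All 3 KO+WT values were above the parental ones, but all 6 lay in that background range, and the difference was 0.61 (SE 0.28, adjusted p = 0.467). Duxf3 and Sp110 are named here after their values were seen.

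**Figure D2:**
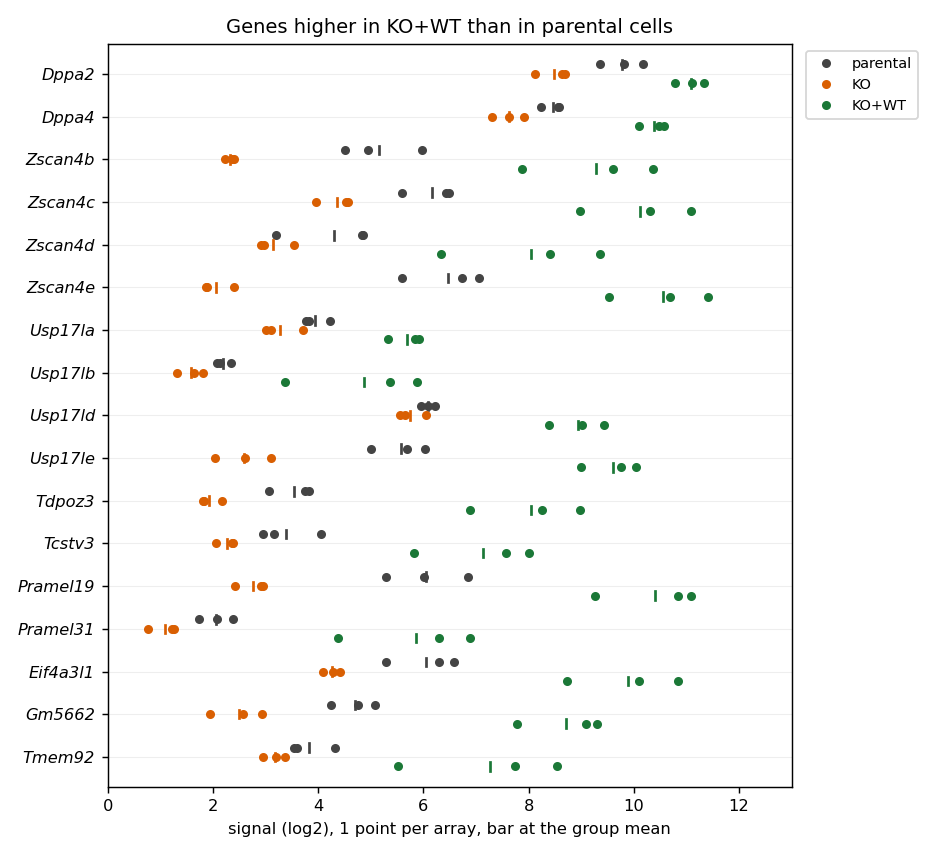
Signal (log2) of Dppa2, Dppa4 and genes of the 2C-like families on each of 3 parental (grey), 3 KO (orange) and 3 KO+WT (green) arrays, with a bar at each group mean. In every row the KO+WT arrays lie above the parental arrays, and in most rows the KO arrays lie below them; Tdpoz3 reaches 8.97 in KO+WT against at most 3.82 in parental cells.

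Outside the 2C-like list, 47 further genes were above the parental level, 15 of them predicted genes or small RNAs, with a median difference of 1.31 (log2) and a smallest of 0.65. The same array was low here too: KO+WT replicate 1 was the lowest of its group for 35 of the 47. Ccl3, a chemokine, was 3.47, 4.15 and 3.92 in parental cells and 5.52, 7.96 and 8.15 in KO+WT cells, with no overlap. Its difference of 3.36 (SE 0.55, adjusted p = 0.0154) was not past the threshold without parental replicates 1, 2 and 3 (0.076, 0.0535 and 0.0666), KO+WT replicates 2 and 3 (0.0772 and 0.0593) or in the fit of 6 arrays (0.0943). Without KO+WT replicate 1 the difference was 4.21. Lgals4, a galectin of gut epithelium, was 2.30 higher (SE 0.35, adjusted p = 0.0083), with adjusted p of 0.055 without parental replicate 3 and 0.0724 in the fit of 6 arrays. Gucy1a1, a subunit of soluble guanylate cyclase, was low throughout at 1.80, 1.78 and 1.60 in parental cells and 2.60, 2.81 and 3.04 in KO+WT cells, a difference of 1.09 (SE 0.13, adjusted p = 0.00136).

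The 71 higher genes fell into groups by where KO cells stood. For 26 genes all KO arrays lay below all parental arrays, so that KO and KO+WT lay on opposite sides of the parental level, and 7 of these passed the test in KO too. For 35 genes the KO arrays overlapped the parental arrays, and for 10 the KO arrays already lay above them. Over all genes, KO arrays lay wholly below parental arrays for 6.83% and wholly above for 6.11%. The median rise was 3.81 in the first group, 1.66 in the second and 0.99 in the third. These comparisons share the parental arrays, so the split is a description. The third group included Grb10, an imprinted gene for an adaptor protein that restrains growth. Grb10 was 5.27, 5.34 and 4.53 on the parental arrays, 7.58, 7.57 and 6.16 on the KO arrays and 7.77, 7.79 and 6.51 on the KO+WT arrays. Replicate 3 was the lowest of each group, and KO+WT stayed with KO rather than with parental cells. The difference was 2.31 (SE 0.46), with adjusted p = 0.0477 and 9.87e-05 with the replicate block. Without the block its call was lost in the fit of 6 arrays (0.0544), without parental replicates 1, 2 and 3 (0.117, 0.127 and 0.182) and KO+WT replicates 1 and 2 (0.136 and 0.16). It was the one gene of 33 measured in the imprinted list that passed without the block.

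The opposite view starts from the genes that the knockout had changed. Against parental cells 45 genes were lower in KO (0.203%) and 8 were higher (0.0361%). On a scale where 0% is the KO mean and 100% the parental mean (log2), the median of the 45 lower genes in KO+WT was 48.0%, with a range from -38.3% to 289%. The genes were chosen on these same KO and parental arrays, so the percentages are a description. For 2 of the 45, Zscan4e and Gm11543, the KO mean lay under 2.47, and their percentages are limited by the background. Above parental level and past the threshold were 7 genes, between 193% and 289%; below it and past the threshold were 17, with a median of 0.18%; the other 21 did not differ past the threshold and lay between 23.9% and 184%. By size, 16 genes were restored by less than 25%, 12 by 25 to 75%, 5 by 75 to 120% and 12 by more than 120%. The 7 overshooting genes were Gm2046, Gm5662, Usp17le, Pramel19, Dppa2, Gm11543 and Zscan4e. Against KO cells, KO+WT had 162 of all genes higher (0.730%) and 22 lower (0.0992%), 184 in either direction (0.830%), and 16 of the 45 were among the higher. Of the 21 genes not past the threshold against parental cells, 16 had an interval within 2-fold of the parental level. This count does not measure return either. Most of the 21 were already less than 2-fold below parental level in KO. Among these were Prps2 (-0.68) and Dpp4 (-0.82), which stood at 29.0% and 23.9%. Others, such as Cd3e (-1.77), had been further below.

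**Figure D3:**
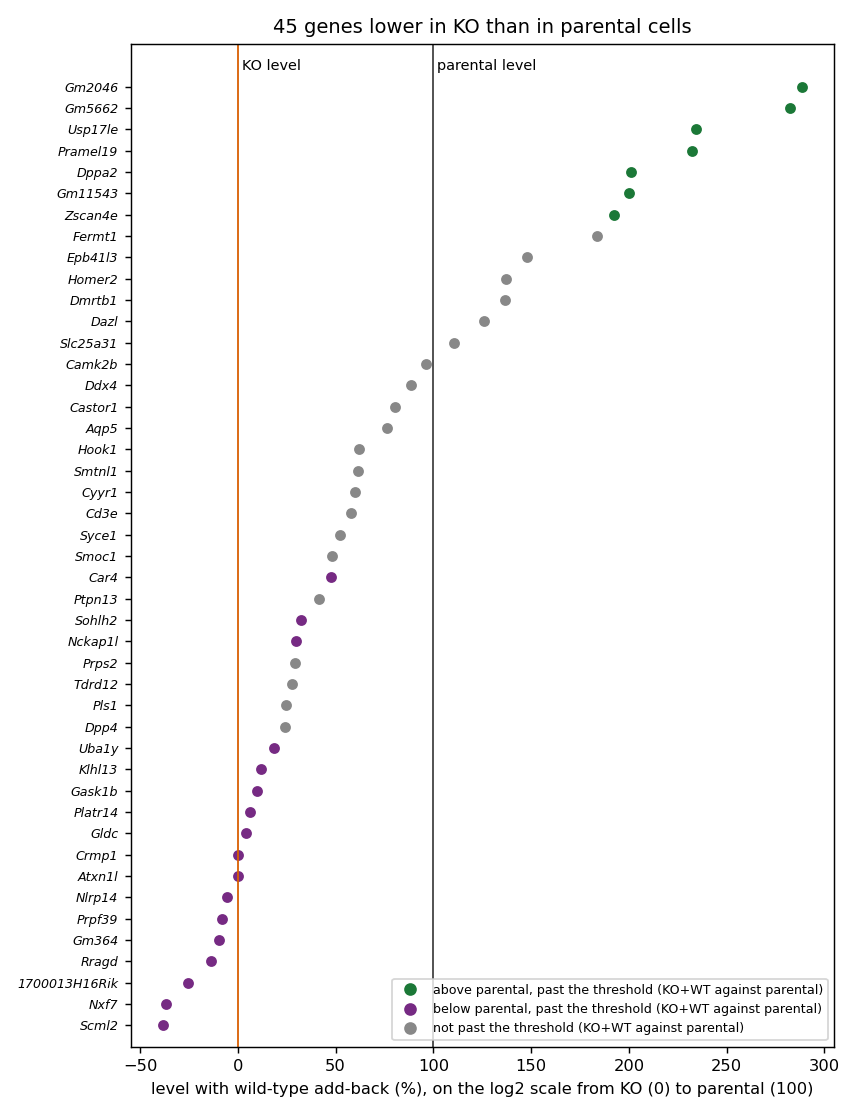
Position of KO+WT on the log2 scale from the KO mean (0%, orange line) to the parental mean (100%, grey line) for the 45 genes lower in KO. Green marks the 7 genes above parental past the threshold, purple the 17 below it and grey the 21 not past it; values run from -38.3% (Scml2) to 289% (Gm2046).

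Genes close to the parental level again included some germ cell genes. Of 48 measured genes of the germline list, 6 were lower in KO (0.203% of all genes). Not all of them came back: Sohlh2 stood at 32.1%. Ddx4, a germ cell RNA helicase, was 5.60, 5.55 and 5.38 on the parental arrays, 4.25, 3.96 and 4.08 on the KO arrays and 5.44, 5.43 and 5.17 on the KO+WT arrays. The KO+WT arrays overlapped the parental arrays and lay clear of the KO arrays. The difference from parental cells was -0.16 (SE 0.16, adjusted p = 0.782), 88.7% of the way back. Dazl, an RNA-binding protein of germ cells, was 6.39, 6.70 and 6.78 on the parental arrays, 5.31, 5.02 and 5.49 on the KO arrays and 6.77, 6.89 and 7.25 on the KO+WT arrays. It stood at 126%, with a difference of 0.35 from parental cells (SE 0.17, adjusted p = 0.492) and a rise of 1.69 over KO cells (adjusted p = 0.000181). Slc25a31, an ADP/ATP carrier of the testis, stood at 111% and Camk2b, a calmodulin-dependent kinase subunit, at 96.3%. Both are named after their values were seen. A p that misses the threshold does not show equality: the 95% interval of the difference ran from -0.51 to 0.19 for Ddx4 and from -0.01 to 0.71 for Dazl.

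Other genes of the knockout had a KO+WT mean between the KO and parental means. Car4, a membrane-bound carbonic anhydrase, was 5.74, 6.03 and 6.24 on the parental arrays, 4.00, 4.22 and 4.24 on the KO arrays and 5.15, 5.0 and 4.94 on the KO+WT arrays. It formed 3 separate groups, 47.5% of the way back, and was past the threshold both against parental cells at -0.97 (SE 0.14, adjusted p = 0.00511) and against KO cells at 0.88 (adjusted p = 0.00772). It was the only one of the 51 lower genes that was past the threshold above KO. In the fit of 6 arrays its adjusted p was 0.0669. Sohlh2, a transcription factor of early germ cells, was 8.36, 8.31 and 8.71 on the parental arrays, 5.62, 5.82 and 6.31 on the KO arrays and 7.04, 6.20 and 6.97 on the KO+WT arrays. The KO+WT arrays stayed below every parental array and overlapped the KO arrays, at -1.72 (SE 0.24, adjusted p = 0.00491) and 32.1%. Nckap1l, a WAVE complex subunit of blood cells, stood at 29.6% with a difference of -1.05 (SE 0.14, adjusted p = 0.00294). Syce1, of the synaptonemal complex, and Cd3e, of the T cell receptor complex, stood at 52.4% and 58.0%. Their differences of -0.69 and -0.74 were not past the threshold (adjusted p = 0.223 and 0.242). Against KO cells, Sohlh2, Nckap1l, Syce1 and Cd3e did not pass (limma adjusted p = 0.170, 0.193, 0.139 and 0.0645). Of the genes named here, a partial return was thus past the threshold for Car4 alone.

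Other genes stayed near the KO level. Prpf39, a splicing factor of the U1 small nuclear ribonucleoprotein, was 5.68, 6.06 and 5.99 on the parental arrays, 2.34, 2.62 and 2.48 on the KO arrays and 1.99, 2.25 and 2.37 on the KO+WT arrays. The KO and KO+WT arrays overlapped and both lay far below the parental arrays. Its difference from parental cells was the largest fall, -3.71 (SE 0.15, adjusted p = 5.66e-08). The KO+WT values lay under 2.47, in the range of the background, which limits the size of this fall. Atxn1l, a partner of the repressor Capicua, was 6.09, 6.25 and 5.95 on the parental arrays, 4.27, 4.09 and 3.67 on the KO arrays and 4.02, 4.01 and 3.98 on the KO+WT arrays. It differed from parental cells by -2.09 (SE 0.15, adjusted p = 3.39e-05) and stood at -0.15%, the KO mean itself.

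Uba1y, a Y-linked ubiquitin-activating enzyme, was 6.70, 6.92 and 6.59 in parental cells and 5.09, 4.59 and 5.16 in KO+WT cells, a difference of -1.79 (SE 0.21, adjusted p = 0.00125) with 18.6% return. Klhl13, an adaptor of a cullin ubiquitin ligase, was -1.27 (SE 0.15, adjusted p = 0.00125) with 11.7% return. Gldc, the glycine decarboxylase of the glycine cleavage system, was 9.05, 9.18 and 9.11 on the parental arrays, 7.78, 8.03 and 7.87 on the KO arrays and 7.99, 8.24 and 7.61 on the KO+WT arrays. Its KO+WT arrays spanned the KO arrays, at -1.16 from parental cells (SE 0.16, adjusted p = 0.00398) and 4.40% return. Platr14, a noncoding RNA of pluripotent cells, stood at 6.33%. Nxf7, of the nuclear RNA export factor family, and Scml2, a Polycomb-associated protein of the male germline, lay still lower than in KO, at -37.0% and -38.3%, though neither differed from KO past the threshold. Their differences from parental cells were -1.63 (adjusted p = 0.000303) and -1.62 (adjusted p = 0.00249). The calls of Prpf39, Atxn1l, Uba1y, Klhl13, Gldc, Platr14, Nxf7 and Scml2 were kept whichever of the 6 arrays was left out.

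Promoters of 2 genes from this side are printed in the same form as those of the 2C-like families (RefSeq, GRCm38.p6, 250 bases before the start, CG in capitals).
Prpf39 (chr12:65036084-65036333, plus strand): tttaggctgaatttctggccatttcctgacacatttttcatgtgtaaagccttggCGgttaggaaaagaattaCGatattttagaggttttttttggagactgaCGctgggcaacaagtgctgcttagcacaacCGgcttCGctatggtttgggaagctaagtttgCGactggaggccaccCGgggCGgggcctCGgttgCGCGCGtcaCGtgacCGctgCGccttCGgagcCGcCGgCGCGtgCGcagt
Sohlh2 (chr3:55181794-55182043, plus strand): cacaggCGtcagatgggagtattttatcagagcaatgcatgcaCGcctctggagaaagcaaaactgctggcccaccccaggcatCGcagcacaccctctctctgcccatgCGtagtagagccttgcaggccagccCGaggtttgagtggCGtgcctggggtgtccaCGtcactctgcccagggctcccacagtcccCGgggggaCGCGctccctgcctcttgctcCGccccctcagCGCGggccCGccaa
They hold 21 and 14 CG, above the median of 9 for the 40 lower genes with a promoter sequence. That median is near the 10 of all tested genes, so this pair does not represent the lower genes. Each holds GGGCGG once, counting both strands. It was in 47.5% of the 40 windows at least once, against 43.3% of those of tested genes. Neither holds TATAAA, which was in 2 of the 40 windows (5.0%), against 11.9% of those of tested genes.

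In all, 44 of the 51 genes below parental level had all KO arrays below all parental arrays (6.83% of all genes), 17 of them past the threshold in KO, and for 44 KO+WT was not past the threshold against KO. A further 6 of the 51 were past the threshold below KO as well. The 51 were chosen against the same parental arrays, so this split too is a description. Srgn, the proteoglycan core protein serglycin, was 7.05, 7.28 and 7.57 on the parental arrays, 6.66, 6.63 and 6.84 on the KO arrays and 6.12, 6.09 and 5.98 on the KO+WT arrays. The 3 groups did not overlap, and KO+WT differed from parental cells by -1.23 (SE 0.14, adjusted p = 0.000939). Scd1, the stearoyl-CoA desaturase, was 7.63, 7.27 and 7.40 in parental cells and 7.53, 7.08 and 7.70 in KO cells, but 6.52, 6.49 and 6.42 in KO+WT cells. The fall of 0.96 (SE 0.17, adjusted p = 0.0252) was thus seen against both. Its call was lost without parental replicates 1, 2 and 3 (adjusted p = 0.106, 0.0576 and 0.0897) and KO+WT replicates 2 and 3 (0.0854 and 0.0804).

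Prdm14, a regulator of naive pluripotency and of primordial germ cells, showed the same form: 6.57, 6.47 and 6.37 on the parental arrays, 6.43, 6.67 and 6.65 on the KO arrays and 5.82, 5.86 and 5.73 on the KO+WT arrays. The difference was -0.67 (SE 0.13, adjusted p = 0.0464). It was the one of 34 measured naive pluripotency genes that passed, and its call was lost without any 1 of the 6 arrays: without parental replicates 1, 2 and 3 adjusted p was 0.172, 0.167 and 0.11, without KO+WT replicates 1, 2 and 3 it was 0.0957, 0.103 and 0.134, and in the fit of 6 arrays it was 0.102. Gtsf1l, related to a piRNA pathway protein, was 0.71 below parental level (SE 0.13, adjusted p = 0.0329) and lost its call without parental replicates 1, 2 and 3 (0.137, 0.13 and 0.0766), KO+WT replicates 1 and 3 (0.0637 and 0.103) and in the fit of 6 arrays (0.16). The small nucleolar RNA genes Snora74a and Snora62, named after their values were seen, were -1.52 and -1.31 (adjusted p = 0.0178 and 0.0264). Each lost its call in the fit of 6 arrays (0.0801 and 0.102). Snora74a also lost it without parental replicates 2 and 3 (0.0854 and 0.0889) and KO+WT replicates 1 and 3 (0.0532 and 0.0678), and Snora62 without parental replicates 1 and 3 (0.0944 and 0.0915) and KO+WT replicates 1 and 2 (0.0832 and 0.0981).

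**Figure D4:**
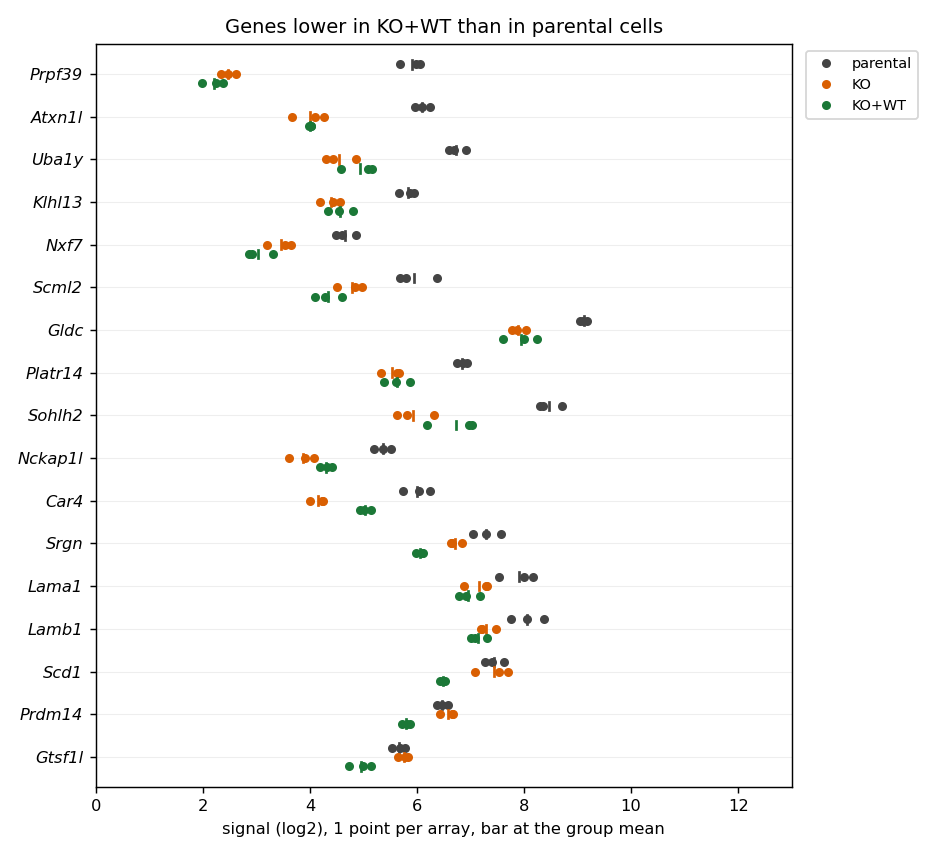
Signal (log2) of 17 genes lower in KO+WT than in parental cells on each of 3 parental (grey), 3 KO (orange) and 3 KO+WT (green) arrays, with a bar at each group mean. From Prpf39 to Platr14 the KO and KO+WT arrays lie close together below the parental arrays; for Scd1, Prdm14 and Gtsf1l the KO arrays overlap the parental arrays, and only KO+WT is lower.

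The primitive endoderm is an extraembryonic lineage that some ES cells drift toward. Of its 35 measured genes 3 were lower in KO+WT (0.230% of all genes), 0 higher and 32 did not pass, and with the replicate block 6 were lower (0.996% of all genes) and 0 higher. The median difference was -0.17, and 26 of the 35 differences were negative. The list's mean signal was 5.86, 6.03 and 6.14 on the parental arrays, 5.59, 5.65 and 5.70 on the KO arrays and 5.66, 5.69 and 5.57 on the KO+WT arrays. By this mean KO+WT lay among the KO arrays and below the parental arrays. Beside Srgn, the genes that passed were Lama1 and Lamb1, subunits of the basement membrane protein laminin. Lama1 was 7.53, 8.0 and 8.17 in parental cells and 6.78, 7.17 and 6.92 in KO+WT cells, without overlap. Its difference was -0.94 (SE 0.19, adjusted p = 0.0477) and that of Lamb1 was -0.92 (SE 0.16, adjusted p = 0.0222). The Lama1 call was lost without parental replicates 2 and 3 (0.194 and 0.182), KO+WT replicates 1, 2 and 3 (0.135, 0.0773 and 0.131) and in the fit of 6 arrays (0.146). The Lamb1 call was lost without parental replicates 2 and 3 (0.0902 and 0.0901), KO+WT replicates 2 and 3 (0.0854 and 0.0804) and in the fit of 6 arrays (0.124).

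Cubn, Dab2 and Pdgfra, named after their values were seen, passed with the block alone. Cubn, the endocytic receptor cubilin, was 5.22, 5.73 and 6.85 on the parental arrays, 3.53, 3.91 and 5.93 on the KO arrays and 3.19, 3.21 and 3.66 on the KO+WT arrays. Parental replicate 3 and KO replicate 3 were both the highest of their group. The difference was -2.58 (SE 0.56, adjusted p = 0.0689, and 0.00276 with the block). Dab2, an adaptor of endocytosis, was -1.84 (adjusted p = 0.0876, and 0.00929 with the block). Pdgfra, a growth factor receptor that marks this lineage, was -1.55 (adjusted p = 0.133, and 0.000141 with the block). The lineage's transcription factors Gata4 and Gata6 did not pass in either fit, with differences of -0.47 and -0.43.

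The germline list had 2 of 48 measured genes lower, Sohlh2 and Gtsf1l, and 0 higher, with a median difference of 0.04. All genes gave 0.230% lower and 0.320% higher. With the block the list had 5 lower and 3 higher, against 0.996% and 1.07% of all genes. Among 27 measured genes of sterol and fatty acid synthesis 24 differences were negative and the median was -0.23, and Scd1 was the only call. The 37 measured genes of the SUMO machinery and SUMO-linked silencing had 31 negative differences and a median of -0.13, with 1 call, the rise of Zfp809 (8.16, 8.45 and 8.38 in KO+WT against 7.56, 7.58 and 7.94 in parental cells, adjusted p = 0.0477). Centred arrays put the adjusted p of Zfp809 at 0.0973, and its call was lost without parental replicates 1 and 2 (0.187 and 0.208), KO+WT replicates 2 and 3 (0.157 and 0.134) and in the fit of 6 arrays (0.223). Those 2 medians stand beside an all-gene median of 0.0036.

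Other lists had no member past the threshold without the block. They were early embryo genes outside the 2C-like list (21 measured, median 0.03), formative and primed pluripotency (24, -0.12), mesoderm (23, 0.18), neuroectoderm (21, 0.05), trophectoderm (22, -0.03), fibroblast markers (23, 0.07), interferon and DNA sensing (30, 0.02), p53 targets (25, 0.13), ATF4 and unfolded protein response genes (31, 0.17), immediate early genes (25, 0.02), heat shock chaperones (19, -0.07) and DNA methylation genes (15, -0.16). With the block, calls appeared in 8 of these 12 lists: 2 higher and 4 lower for formative and primed pluripotency, 3 higher for p53 targets, 1 higher and 2 lower for DNA methylation genes, and 1 each for early embryo (Zp3, lower), mesoderm (Snai1, higher), trophectoderm (Peg10, lower), fibroblast (Vim, lower) and immediate early genes (Btg2, higher). Among the DNA methylation genes was Dnmt3b, a de novo DNA methyltransferase, at 7.53, 8.22 and 8.62 on the parental arrays, 6.67, 7.39 and 7.70 on the KO arrays and 6.43, 7.51 and 7.61 on the KO+WT arrays. Replicate 1 was the lowest in each group, and the difference was -0.93 (SE 0.38, adjusted p = 0.389, and 0.00192 with the block). Without the block, the lists of other cell types gave no call apart from the 3 endoderm genes. The fibroblast markers ran from 4.28 to 4.46 in parental cells and from 4.39 to 4.48 in KO+WT cells as a list mean.

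**Figure D5:**
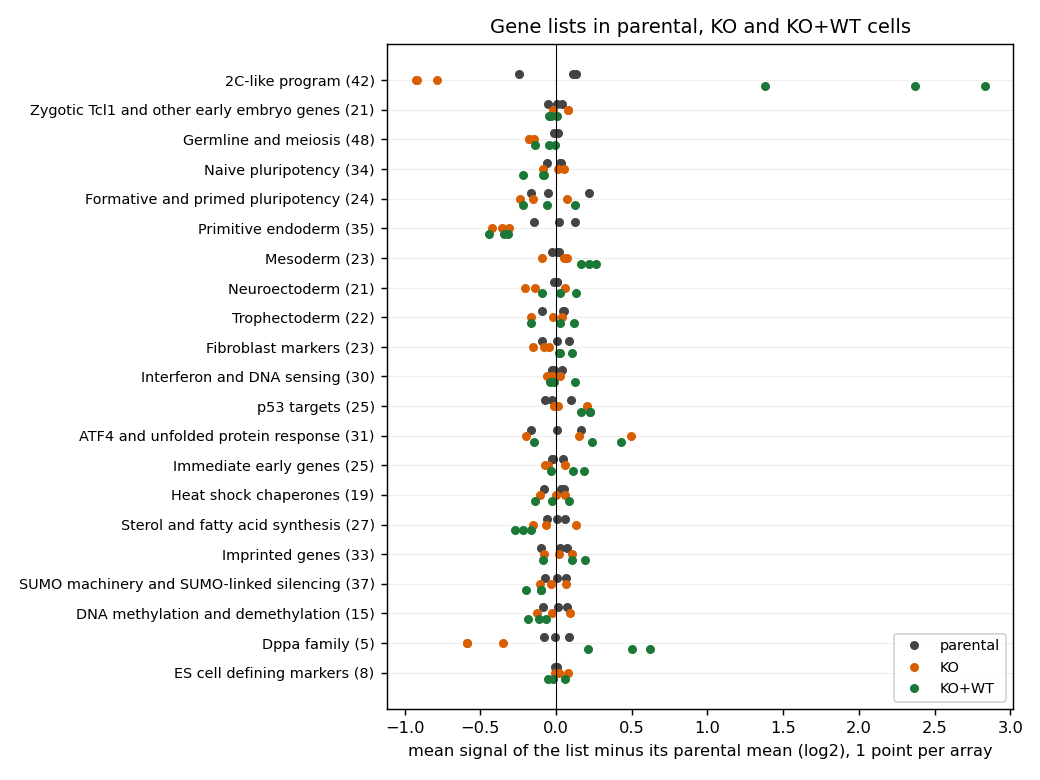
Mean signal of each gene list on each array, minus the list's mean over the parental arrays (log2), for parental (grey), KO (orange) and KO+WT (green) cells; the number of measured genes is in brackets. The 2C-like list in KO+WT stands to the right of all others, and the primitive endoderm list in KO+WT lies with KO, to the left of the parental arrays, with 3 of its 35 genes past the threshold.

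Falls outside the lists of genes that did not pass in KO included Klb, Rhox5, Podxl, Abcb1a and Nxf3. Klb, the FGF co-receptor beta-Klotho, was 5.18, 5.77 and 6.42 in parental cells and 3.58, 4.19 and 3.91 in KO+WT cells. Its difference of -1.89 (SE 0.34, adjusted p = 0.0264) was lost without parental replicates 2 and 3 (0.103 and 0.111), KO+WT replicates 1, 2 and 3 (0.0816, 0.0622 and 0.0804) and in the fit of 6 arrays (0.0556). Rhox5, a homeobox gene of the X-linked Rhox cluster, was 7.0, 7.52 and 7.50 on the parental arrays, 5.91, 6.45 and 6.56 on the KO arrays and 5.89, 5.95 and 6.32 on the KO+WT arrays. KO and KO+WT overlapped below the parental arrays, and the difference was -1.29 (SE 0.19, adjusted p = 0.00765), with adjusted p of 0.0566 and 0.0524 without parental replicates 2 and 3. Podxl, an anti-adhesive sialomucin, was -1.17 (adjusted p = 0.0408), a call lost without parental replicates 1, 2 and 3 (0.0565, 0.109 and 0.154), KO+WT replicates 1, 2 and 3 (0.0993, 0.124 and 0.0893) and in the fit of 6 arrays (0.0669). Abcb1a, a drug efflux transporter, was -1.15 (adjusted p = 0.01), lost without parental replicates 2 and 3 (0.0612 and 0.0666), KO+WT replicate 3 (0.0525) and in the fit of 6 arrays (0.0839). Nxf3, a paralog of Nxf7, was -1.11 (adjusted p = 0.0264), lost without parental replicates 1, 2 and 3 (0.0868, 0.13 and 0.0666), KO+WT replicates 2 and 3 (0.0981 and 0.0761) and in the fit of 6 arrays (0.0839).

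On the scale from KO to parental mean, the 8 genes higher in KO than in parental cells stood at 16.3% to 81.1% in KO+WT. None differed from KO past the threshold, with limma adjusted p from 0.0633 for Sh3bgrl to 0.731 for 1700108F19Rik. They were chosen for high KO values against the same parental arrays, so a position nearer the parental level follows in part from the choice. The lowest was 1700108F19Rik, at 2.27, 2.40 and 3.33 on the parental arrays, 4.08, 4.43 and 5.03 on the KO arrays and 3.87, 4.50 and 4.27 on the KO+WT arrays. It was still 1.54 above parental level (SE 0.29, adjusted p = 0.0329), a call lost without parental replicates 1 and 2 (0.135 and 0.15), KO+WT replicates 2 and 3 (0.124 and 0.0979) and in the fit of 6 arrays (0.103). The other 7 did not differ from parental cells past the threshold. Sh3bgrl, an SH3-binding adaptor-like protein, came closest at 81.1%, with KO+WT arrays of 6.41, 6.28 and 6.06 among the parental 6.33, 6.07 and 5.94.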

How the data were processed

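Total RNA of 12 samples was hybridised to Affymetrix arrays after WT Plus labelling, per the labels' protocols. The authors deposited 1 normalized log2 signal per probe set and array; the log2 scale was inferred from their range. The Transcriptome Analysis Console was used, per the submitters' processing notes. Not given in the sources used here are its version, background correction, summarization and genome build. No detection calls were used, so low signals cannot be separated from background, and differences of low genes may be compressed.

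Of 41345 probe sets, 23521 had 1 gene symbol, 1814 several and 16010 none. The RefSeq table of GRCm38.p6 held the Entrez identifier of 23328 of the former, with 0 symbols differing. A gene was read from its brightest probe set by the mean over 12 arrays (1082 of 22180 genes had more than 1). No 2 arrays held identical values (0 pairs).

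Groups came from the sample titles. Tests used R 4.3.3 and limma 3.58.1 (lmFit, eBayes, 1 mean per group, all 12 arrays, 8 residual degrees of freedom), two-sided, with Benjamini-Hochberg adjustment over 22180 genes and a threshold of 0.05. The test was tried on simulated data. Restoration was computed from group means on the log2 scale. Gene lists were described by counts and medians, with no set test. RefSeq promoter windows were scanned on both strands; TATAAA was searched in addition to the motifs planned. Tables and figures used Python 3.11.15, pandas 2.3.3 and matplotlib 3.10.9.

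Same-numbered arrays of KO+WT and parental cells deviated from their group means with r of 0.331, 0.15 and 0.313, above the highest r with another number (-0.0324), so the numbers were taken to pair them; what a number stands for is not stated.

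The members, lists and tests were chosen with earlier results of these data known. The genes named were Dppa2 and Dppa4, the 15 rises and 15 falls of largest size past the threshold without overlap, leaving out predicted and small RNA genes, up to 8 members of each list past the threshold by smallest p (the 2 of smallest p where none passed), the 15 largest differences of KO, members of the 2C-like families and the ES cell markers. Ccl3, Lgals4, Gucy1a1, Gm2046, Gm11543, 1700108F19Rik and Sh3bgrl were named after their values were seen where this rule does not hold them. Alternatives were the replicate block, fits of 6 arrays, centring, quantile normalization and a filter at percentile 25. Others were robust variances, array weights, other handling of probe sets, a 2-fold limit and leaving out each parental, KO and KO+WT array. Arrays of the SUMO-deficient add-back were not left out.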

Additional observations from a re-analysis of the deposited data

How the results depend on the processing

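None of the 122 genes past the threshold changed direction under the alternatives run on it, and 116 of them had a value under each alternative. The block, the fits of 6 arrays and the robust variances leave a difference as it is. The other alternatives reuse the arrays on which the genes were chosen, so a kept direction is weak evidence. Counts moved. Genes higher in KO+WT numbered 71, against 237 with the replicate block, 32 in a fit of the 6 arrays alone, 28 in that fit with the block, 113 with array weights, 126 over all probe sets, and 34 to 102 when 1 of the 6 arrays compared was left out, the latter without KO+WT replicate 1. Genes lower numbered 51, against 221 with the block, 20 and 7 in the fits of 6 arrays without and with it, 24 with a 2-fold limit, and 16 to 31 when 1 of the 6 arrays compared was left out. Without 1 KO array 57 to 60 were higher and 35 to 44 lower. KO against parental gave 40 higher and 97 lower genes with the block. Calls kept whichever of the 6 arrays compared was left out were 29 of the 71 and 15 of the 51, and in the fit of 6 arrays 30 and 19. Centring gave 59 higher and 62 lower. The median restoration of 48.0% was 43.8% after centring and 45.8% to 52.5% when 1 of 9 arrays was left out, the highest without KO replicate 1. The number of genes within 2-fold of parental level in KO+WT ran from 20625 to 21480. The cause of these shifts was not tested, except that the fits of 6 arrays and those without an array rest on fewer samples. Signals near background limit what can be said of Duxf3 and of other low members of the 2C-like list.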

Other observations

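Some genes above the parental level lay side by side in the genome. How often genes drawn at random would do so was not computed. In the order of tested genes in the RefSeq table (GRCm38.p6), 19 of the 70 located higher genes had another higher gene as their neighbour, in 6 runs of up to 5 genes, and the same held for 6 of 51 lower genes, in 3 runs of 2. The longest run held Gm1995, Gm2016, Gm2022, Gm2035 and Gm2046. Another held Tmem92, Gm11546, AA623943 and Gm11543, which were 3.44, 3.74, 3.04 and 4.06 higher (log2); without KO+WT replicate 1, Gm11543 was 4.66 higher. Zscan4b, Zscan4c and Zscan4d formed a run, as did Usp17le, Usp17lb and Usp17la, and Dppa4 and Dppa2. Copies in such runs can share probes, and these genes were picked out after their values were seen. The call of Gm11546 was lost without parental replicates 1 and 3 (adjusted p = 0.0868 and 0.0805) and KO+WT replicates 2 and 3 (0.0859 and 0.0752), and that of AA623943 without the same arrays (0.147, 0.164, 0.13 and 0.131).

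Of the 51 lower genes, 10 (19.6%) are on the X chromosome, against 899 of 21981 located genes tested (4.09%). They include Klhl13, Nxf3, Nxf7, Rhox5 and Scml2, with Nxf7 and AV320801 as neighbours. Of the 70 located higher genes 0 are on X. The Y chromosome held 2 of the lower genes, Uba1y and Kdm5d, and 1 higher gene, Srsy, against 17 of all located genes tested. KO cells showed a like share: of the 45 genes lower in KO than in parental cells, 6 (13.3%) are on X and 1, Uba1y, is on Y. Of those on X, 1700013H16Rik, Gm364, Klhl13, Nxf7 and Scml2 are lower in both comparisons, which share the parental arrays. No test was made of these shares, and the genes were looked at after their values were seen.

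Among higher genes were 2 microRNA genes, both named after their values were seen. The mature RNAs are given from RefSeq (GRCm38.p6), 5′ to 3′, with the seed (bases 2 to 8) in capitals.
mmu-miR-290a-5p (chr7:3218639-3218660, plus strand): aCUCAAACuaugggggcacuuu
mmu-miR-290a-3p (chr7:3218674-3218697, plus strand): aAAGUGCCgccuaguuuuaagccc
mmu-miR-370-3p (chr12:109618305-109618326, plus strand): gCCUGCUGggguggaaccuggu
Mir290a, of the ES cell cluster of that name, was 8.31, 8.48 and 8.74 in parental cells and 9.11, 9.60 and 9.28 in KO+WT cells, a difference of 0.83 (SE 0.16, limma adjusted p = 0.0384). Mir370, of the imprinted Dlk1-Dio3 region, was 1.58, 1.78 and 1.17 against 2.65, 2.04 and 2.53, near background throughout, with a difference of 0.90 (SE 0.18, adjusted p = 0.045). After centring the adjusted p was 0.0557 and 0.0496. In the fit of 6 arrays both calls were lost (0.16 and 0.216). The Mir290a call was also lost without parental replicates 1 and 2 (0.151 and 0.148) and KO+WT replicates 2 and 3 (0.13 and 0.0866), and that of Mir370 without any 1 of parental replicates 1, 2 and 3 (0.117, 0.0566 and 0.164) and KO+WT replicates 1 and 3 (0.132 and 0.137). The arrays read the gene, and mature microRNA levels were not measured.

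Probe sets outside the single-symbol genes had more calls higher than lower. They were not tested after centring, which gave 59 higher and 62 lower among the single-symbol genes. Of 1814 with several symbols, 90 were higher and 11 lower in KO+WT, and of 16010 with none, 31 and 4, each adjusted within its own set.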
